A study of Homo sapiens with 5 samples.

Results

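The genes of the unfolded protein and heat shock responses described here are 35 named human genes, out of 20037 protein-coding genes in the RefSeq table of GRCh38.p14. They were chosen by name and not by a rule on measured values, though earlier results of these data were known by then. All 35 were found. They comprise 2 heat shock factors, 9 cytosolic chaperones, 3 mitochondrial chaperones, 7 chaperones and folding enzymes of the endoplasmic reticulum (ER), 4 sensors and factors of the unfolded protein response, 4 genes of ER-associated degradation and 6 genes of the integrated stress response. Peaks were assigned to a gene within 1 kb of either end of its span and inside the span. Where the RefSeq promoter table gave a transcription start, which it did for 33 of the 35 genes, peaks within 1 kb of that start were read separately. HSF1 and PDIA3 were the 2 genes without a matched start.

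The data are CUT&Tag peak lists from 786-O, an established human renal carcinoma line. In CUT&Tag an antibody brings a transposase to its target, and the enzyme cuts and tags the DNA there. Lactylation of lysine 12 of histone H4 (H4K12la), a modification derived from lactate, was profiled in 2 libraries of cells given 10 µM dexamethasone for 48 h and in 2 libraries of untreated control cells. The glucocorticoid receptor (GR), the transcription factor that dexamethasone activates, was profiled in 1 library of dexamethasone-treated cells under the same dose and time. All 5 libraries are of the same line and carry the same batch label. Nothing says that the replicates were separate cultures, so the spread between them may be technical.

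Misfolded protein is sensed separately in the cytosol and in the ER. In the cytosol the heat shock factors HSF1 and HSF2 bind heat shock elements and switch on chaperones such as the HSP70 family. In the ER the kinase IRE1 (gene ERN1), the membrane-bound factor ATF6 and the kinase PERK (gene EIF2AK3) raise chaperones and degradation genes through XBP1, cleaved ATF6 and ATF4. PERK shares its target, the initiation factor eIF2, with the amino acid sensor GCN2 (gene EIF2AK4), and the shared downstream programme is called the integrated stress response. Glucocorticoids act in kidney epithelium through GR, whose inactive form is held by cytosolic chaperones.

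The dexamethasone H4K12la lists held 82382 and 68980 peaks, the control lists 129848 and 115182, and the GR list 8065. Each H4K12la peak carries the height at its summit as the authors deposited it. The read depth of every library is unknown and these heights are not scaled to it, so fewer peaks or lower heights in a list can come from a shallower library, and its part in the results below was not tested. The lowest listed heights were 11 and 12 in the dexamethasone lists and 9 and 10 in the control lists. A gene without a listed peak is therefore not shown to lack the mark. Of 8 kidney epithelium and renal carcinoma markers, 5 and 2 had an end peak in the dexamethasone lists and 5 and 6 in the control lists. Of 9 markers of blood, endothelium and neurons, 4 and 2 had one in the dexamethasone lists and 4 and 5 in the control lists, so end peaks alone did not set the line apart from other cell types.

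With dexamethasone, fewer stress response genes carried an H4K12la peak and those that did carried a lower one. Of the 33 genes with a known start, 18 and 16 had a start peak in the dexamethasone lists, against 30 and 30 in the control lists. These are 54.5% and 48.5% with dexamethasone and 90.9% and 90.9% in the control lists, beside 30.4% and 24.1% with dexamethasone and 58.7% and 59.8% in the control lists over all 15843 genes with a known start, so the number was also lower with dexamethasone over all genes. A start peak was listed in both control and neither dexamethasone list for 8 genes, HSPA1B, HSPH1, HSPB1, PDIA4, ATF6, DDIT3, TRIB3 and PPP1R15A, while 23.6% of those 15843 genes behaved so. Of the 30 members with a start peak in both control lists, those 8 had none with dexamethasone, beside 43% of the 8694 such genes in the genome. No member had a start peak in both dexamethasone and neither control list, a class that held 0.511% of genes. Start peaks in all 4 lists were found for 12 members, among 17% of all genes, and in each of the 12 the higher dexamethasone value lay under the lower control value, as in 89.8% of the 2690 genes with start peaks in all 4 lists. The share with this order is thus near that of all genes. Any single value compared between 2 and 2 libraries has 6 assignments, so an exact two-sided permutation test cannot go below p = 0.333, and no difference here reaches significance by such a test.

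**Figure D1:**
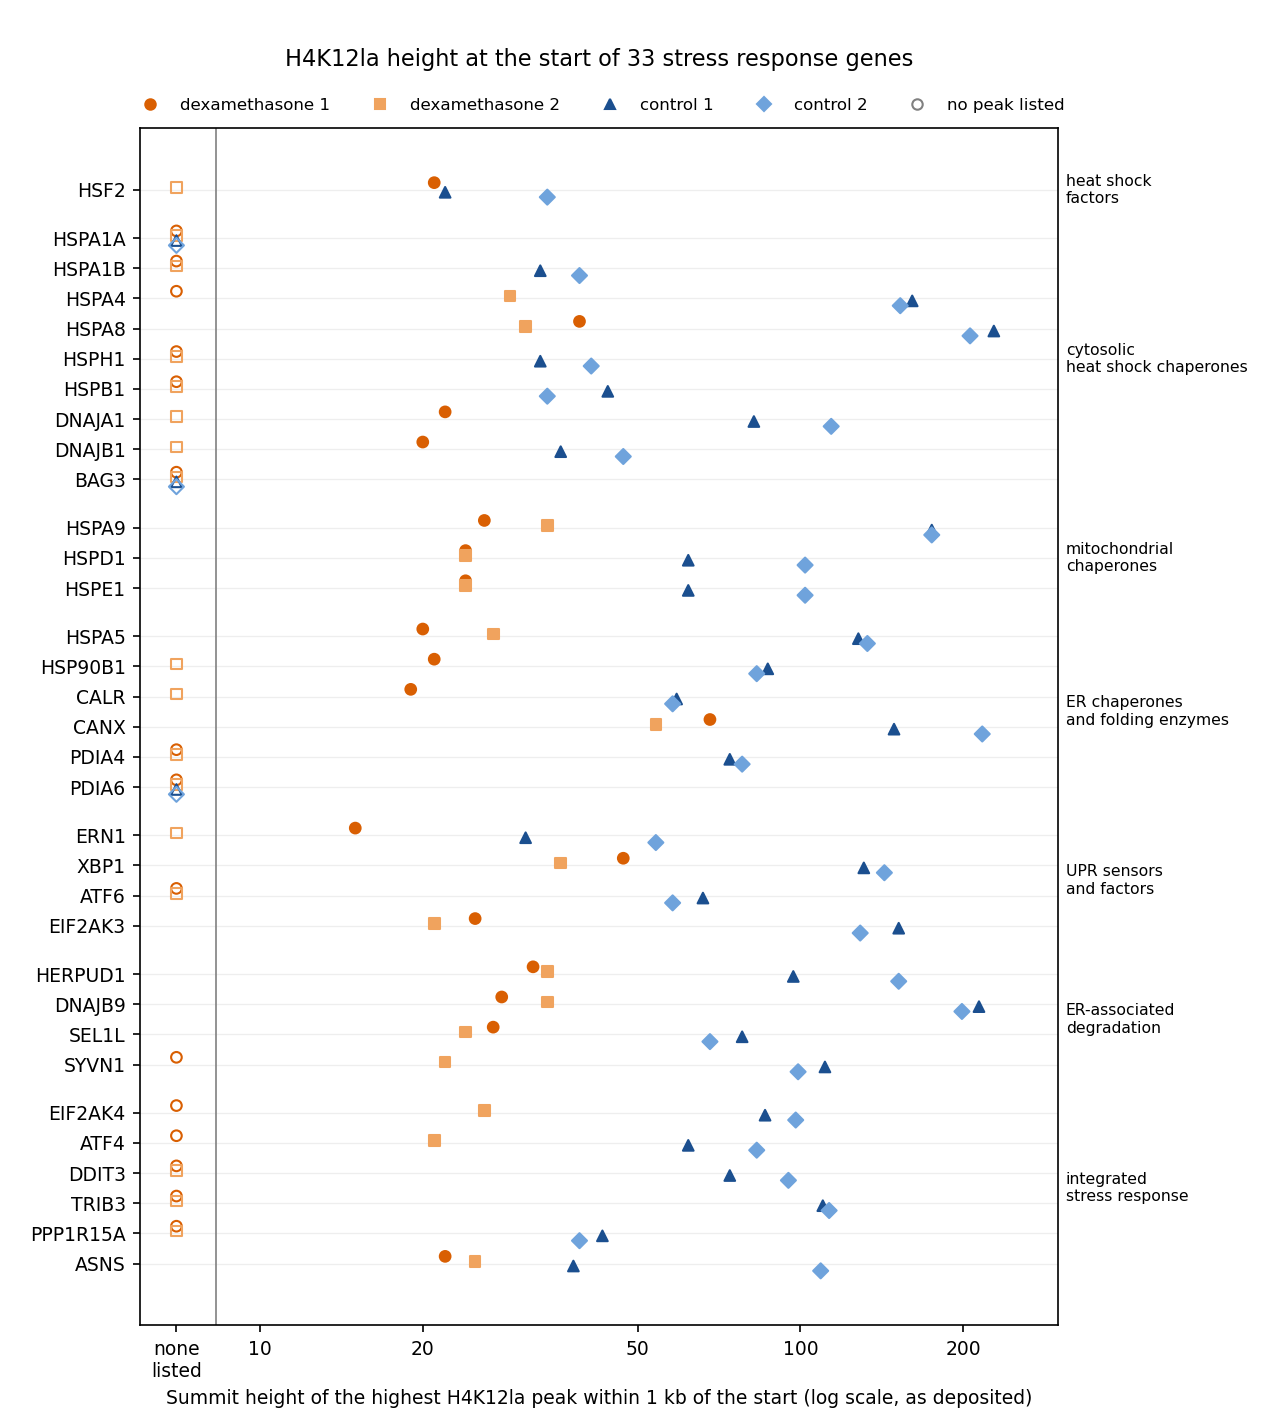
Summit height (log scale, as deposited) of the highest H4K12la peak within 1 kb of the start of the 33 genes with a known start, by role, in dexamethasone libraries 1 and 2 (orange) and control libraries 1 and 2 (blue); open symbols on the left mark genes with no listed peak. For each of the 12 genes with a start peak in all 4 lists the orange symbols lie left of the blue ones, and 8 genes have only blue filled symbols.

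Counted at either end of the gene, 21 and 23 of the 35 members had a peak in the dexamethasone lists and 31 and 31 in the control lists. Over all 20037 genes, 39.7% and 33.1% had one in the dexamethasone lists and 63.4% and 63.3% in the control lists, so here too the number was lower across the genome. An end peak in both control and neither dexamethasone list was found for 6 members, HSPA1B, HSPB1, CANX, ATF6, DDIT3 and PPP1R15A, beside 18.8% of all 20037 genes. Of the 31 members with an end peak in both control lists, those 6 had none with dexamethasone, beside 31.9% of the 11800 such genes. The count of 6 became 10 without dexamethasone replicate 2. None had one in both dexamethasone and neither control list, beside 0.764% of genes, and without dexamethasone replicate 1 the gene ASNS entered that class through a peak of height 14. End peaks in all 4 lists were found for 18 members, beside 23.6% of genes, and in all 18 the dexamethasone values lay under the control values, beside 82.2% of the 4737 such genes. The height compared is the highest at either end, so for some genes it comes from different ends in the 2 groups. HSPA1A, BAG3 and PDIA6 had no end peak in any H4K12la list, and the remaining 8 were listed in some other combination. The 2 ways of counting differ because an end can lie far from the promoter, and 4 members have a start more than 1 kb from both ends of their span.

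Only HSF2 of the heat shock factors had a start that could be read, and it was weakly marked there. HSF2, which binds heat shock elements together with HSF1, had a start peak of height 21 in dexamethasone replicate 1 and none in replicate 2, against 22 and 34 in the control libraries. Its single dexamethasone value was thus close to the lower control value. HSF1, the main activator of the heat shock response, had peaks at the lower-coordinate end of its span only in the control lists, at 58 and 59. At the upper end it had no peak in dexamethasone replicate 1 and a height of 71 in replicate 2, against 74 and 77 in the control libraries. The 2 dexamethasone libraries thus differed at this end, one close to the controls and one without a peak. HSF1 shares its windows with BOP1 and DGAT1, so these peaks cannot be given to it alone.

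Among the cytosolic chaperones, HSPA8 and HSPA4 carried the highest control start peaks, and the stress-inducible HSPA1B was listed low and in the control libraries only. HSPA8, the constitutive HSP70 of the cytosol (chr11:123057489-123062462, minus strand), had start heights of 39 and 31 in the dexamethasone libraries and 228 and 206 in the control libraries. Its groups were far apart, the dexamethasone mean being 16.1% of the control mean (log2 ratio -2.63). Its control peak in replicate 1 lay at chr11:123062162-123063730, wholly upstream of the start. HSPA4, a nucleotide exchange factor of the HSP110 family, had no start peak in dexamethasone replicate 1 and 29 in replicate 2, against 161 and 153 in the control libraries. At its upper-coordinate end HSPA4 had 29 and no peak with dexamethasone and 32 and 26 in the control libraries, so the groups overlapped there. HSPH1, another HSP110 protein, had none in either dexamethasone library and 33 and 41 in the control libraries. Both genes were thus lower with dexamethasone, HSPH1 with control heights several-fold under those of HSPA4. DNAJA1, a J-domain partner of HSP70, had 22 and no peak with dexamethasone against 82 and 114 in the control libraries. DNAJB1, the J-domain partner best known from heat shock, had 20 and no peak with dexamethasone against 36 and 47 in the control libraries. At its upper-coordinate end, away from that start, DNAJB1 had 59 and 70 in the dexamethasone libraries and 83 and 112 in the control libraries. The groups were closer at the far end of DNAJB1 than at its start. HSPB1, a small heat shock protein that holds unfolded clients, had no start peak with dexamethasone and 44 and 34 in the control libraries.

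The strongly inducible HSP70 genes HSPA1A and HSPA1B are near-identical copies on chromosome 6, and the region of their promoters is shown because it bears on which copy a peak is given to. HSPA1A had no start or end peak in any list, while HSPA1B had none in the dexamethasone libraries and 33 and 39 in the control libraries. Aligned over the 300 bases from 250 before to 50 after the start, the copies shared 277 of 301 alignment columns, which is 92.0% identity, with a longest shared run of 49 bases. The 150 bases before each start, from RefSeq GRCh38.p14, are at chr6:31815393-31815542 (HSPA1A) and chr6:31827588-31827737 (HSPA1B), both on the plus strand, with a heat shock element GAANNTTC in capitals.
HSPA1A: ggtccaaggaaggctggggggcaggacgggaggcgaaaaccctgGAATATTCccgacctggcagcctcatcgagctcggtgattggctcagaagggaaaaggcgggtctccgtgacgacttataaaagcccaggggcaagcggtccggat
HSPA1B: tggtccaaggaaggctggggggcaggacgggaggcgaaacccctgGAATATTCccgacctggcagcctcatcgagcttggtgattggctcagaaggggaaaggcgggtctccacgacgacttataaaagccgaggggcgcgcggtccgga
How the authors placed reads that match both copies is not known, so the values of both are given as uncertain. The HSPA1B control peaks, at chr6:31826715-31827608 and chr6:31826742-31827620, lie mostly upstream of the aligned windows. Alternative contigs of chromosome 6, which were left out of all counts, held 108 and 71 peaks in the dexamethasone lists and 603 and 517 in the control lists. Whether reads of the pair were placed there was not tested. BAG3, a co-chaperone that links HSP70 to autophagy, likewise had no start or end peak, but had 3 inside peaks in every H4K12la list. Near chr10:119658505 these were 31 and 34 with dexamethasone and 44 and 35 in the control libraries. Near chr10:119672494 they were 34 and 28 with dexamethasone and 24 and 23 in the control libraries. The remaining peak lay near chr10:119657175 with dexamethasone, at 29 and 29. In the control libraries it lay elsewhere, near chr10:119667297, at 43 and 50.

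HSPA8 was also the member whose promoter held the most heat shock elements. Of the 33 member windows, each from 250 bases before to 50 after the start, 7 held GAANNTTC or TTCNNGAA, beside 11.4% of all 15843 windows searched on both strands. The GAANNTTC form was in 6 member windows and in 5.56% of all, and the TTCNNGAA form in 3 and in 6.6%. Each form reads the same on both strands, and the forms can overlap. In the 250 bases before the start of HSPA8, at chr11:123062137-123062386 of GRCh38.p14 read on the minus strand, the capitals mark 2 stretches in each of which a GAANNTTC and a TTCNNGAA overlap.
HSPA8: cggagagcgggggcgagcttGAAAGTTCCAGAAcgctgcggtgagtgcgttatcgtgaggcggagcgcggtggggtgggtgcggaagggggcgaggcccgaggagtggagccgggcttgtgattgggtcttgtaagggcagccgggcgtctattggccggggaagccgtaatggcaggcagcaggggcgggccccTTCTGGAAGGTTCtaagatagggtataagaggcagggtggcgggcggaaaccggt
The first stretch lies at -230 to -218 and the second at -55 to -43, counted from the start with negative positions upstream. The windows of HSPA1A, HSPA1B, HSPB1, DNAJA1, HSPA9 and ASNS held the other matches. Among these 7 genes the start class ranged over peaks in all 4 lists (HSPA8, HSPA9, ASNS), peaks in the control lists only (HSPA1B, HSPB1), peaks in both control lists and 1 dexamethasone list (DNAJA1) and no peak (HSPA1A).

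All 3 mitochondrial chaperones kept a start peak in every list, at a lower height with dexamethasone. HSPA9, the mitochondrial HSP70, had 26 and 34 in the dexamethasone libraries and 175 and 175 in the control libraries, a log2 ratio of -2.54. HSPD1 (HSP60) and its co-chaperonin HSPE1 (HSP10) are transcribed in opposite directions from starts 105 bases apart and share a single peak, of height 24 and 24 with dexamethasone and 62 and 102 in the control libraries. The groups of both peaks do not overlap, though the HSPD1 and HSPE1 control heights differed from each other more than those of HSPA9. The 104 bases between the 2 starts, at chr2:197500275-197500378 on the plus strand of GRCh38.p14, are shown because 1 promoter serves the pair and a single peak stands for both genes.
HSPE1 and HSPD1: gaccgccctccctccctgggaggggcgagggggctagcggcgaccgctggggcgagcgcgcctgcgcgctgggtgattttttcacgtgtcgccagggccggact
The GR list also held 1 peak over this stretch, 604 bases long, at chr2:197499859-197500462.

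In the ER chaperones and folding enzymes the start peaks were lower or unlisted with dexamethasone, and CANX had the highest start heights of any member with dexamethasone. HSPA5 (BiP), the main HSP70 of the ER and a regulator of the stress sensors, had start heights of 20 and 27 in the dexamethasone libraries and 128 and 133 in the control libraries, a log2 ratio of -2.47. HSP90B1 (GRP94), the ER form of HSP90, had 21 and no peak with dexamethasone and 87 and 83 in the control libraries. Its upper-coordinate end was listed in dexamethasone replicate 2 alone, at 22. CALR, a lectin chaperone that also buffers calcium, had 19 and no peak with dexamethasone against 59 and 58 in the control libraries. In all 3 genes the control libraries were close to each other and above any dexamethasone start height. CANX, the membrane-bound partner of CALR, had 68 and 54 with dexamethasone and 149 and 217 in the control libraries at the RefSeq start, which lies inside its span. That start peak makes CANX a gene with peaks in all 4 lists, whereas its lower-coordinate end had peaks only in the control libraries, at 54 and 47. PDIA4, a disulfide isomerase, had no start peak with dexamethasone and 74 and 78 in the control libraries. At its lower-coordinate end, far from the start, PDIA4 had 47 and 53 with dexamethasone and 46 and 50 in the control libraries. The groups were thus separate at the start of PDIA4 and overlapped at its other end. PDIA3, an isomerase that works with the lectin chaperones, had 35 and 36 at its lower-coordinate end with dexamethasone and 87 and 116 in the control libraries. PDIA6, another isomerase, had peaks only inside the gene, and the highest lay at different places in each group. Near chr2:10801025 it had 29 and 28 with dexamethasone, against no peak and 15 in the control libraries. Near chr2:10811339 it had no peak with dexamethasone and 34 and 34 in the control libraries. HSPA5, CALR, CANX, PDIA3 and PDIA6 share an end window with a neighbouring gene, as do DNAJA1, HSPA1A, DNAJB9, SYVN1 and EIF2AK4 of the other groups, so their end peaks may belong to either gene.

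The ER stress element, bound by ATF6 and XBP1 together with NF-Y, was searched as CCAAT followed after 9 bases by CCACG, on both strands. It was found in 19 of the 15843 promoter windows (0.12%), and 5 of the 33 members held it, namely HSPA5, HSP90B1 with 2 copies, CALR, CANX and XBP1. The downstream part CCACG alone, which overlaps the whole element, was in 22 member windows and in 44% of all windows. The stretches that hold the whole element, with it in capitals, are shown because the element is rare among promoters and recurs in these genes. All are from RefSeq GRCh38.p14 and read in the direction of the gene, which runs on the minus strand for HSPA5 (chr9:125241371-125241429) and XBP1 (chr22:28800583-28800641) and on the plus strand for HSP90B1 (chr12:103930196-103930254 and chr12:103930301-103930359), CALR (chr19:12938364-12938422) and CANX (chr5:179698758-179698816).
HSPA5: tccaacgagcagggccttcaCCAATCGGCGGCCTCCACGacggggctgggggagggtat
HSP90B1, distal copy: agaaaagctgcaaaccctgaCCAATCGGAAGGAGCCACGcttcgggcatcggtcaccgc
HSP90B1, proximal copy: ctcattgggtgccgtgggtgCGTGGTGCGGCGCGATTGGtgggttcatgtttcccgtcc
CALR: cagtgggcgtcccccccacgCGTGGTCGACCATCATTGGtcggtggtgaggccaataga
CANX: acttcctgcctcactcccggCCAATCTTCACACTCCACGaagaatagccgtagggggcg
XBP1: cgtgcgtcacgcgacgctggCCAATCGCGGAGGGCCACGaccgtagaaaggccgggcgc
The proximal copy of HSP90B1 and the copy of CALR are in reverse orientation. All 5 genes had a GR peak at the start. HSPA5, CANX and XBP1 kept a start peak in both dexamethasone lists, while HSP90B1 and CALR kept one in replicate 1 only. A match of letters is not a bound site, and no binding of ATF6 or XBP1 was measured.

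The 3 sensors of the unfolded protein response differed from each other. EIF2AK3 (PERK) had start heights of 25 and 21 in the dexamethasone libraries and 152 and 129 in the control libraries, a log2 ratio of -2.61. ATF6 had no start peak with dexamethasone and 66 and 58 in the control libraries. ERN1 (IRE1) had 15 and no peak with dexamethasone and 31 and 54 in the control libraries. All 3 were higher in the control libraries at the start, with EIF2AK3 the highest there and ERN1 the lowest. ERN1 was the one member with both dexamethasone heights above both control heights at a gene end. At the lower-coordinate end, away from its start, it had 21 and 22 with dexamethasone and 12 and 14 in the control libraries, the control heights being close to the lowest of their lists. ATF6 also had fewer peaks along its body, 6 and 3 inside peaks with dexamethasone and 17 and 14 in the control libraries. Peaks away from the start were fewer with dexamethasone over all genes too, as given below. XBP1, whose mRNA IRE1 splices into that of an active transcription factor, had 47 and 36 at the start with dexamethasone and 131 and 143 in the control libraries. The XBP1 groups do not overlap, and its log2 ratio was -1.72, near the median of all genes given below.

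The genes of ER-associated degradation kept a start peak in at least 1 dexamethasone list. DNAJB9 (ERdj4), a J-domain co-chaperone that helps hold IRE1 inactive, had 28 and 34 with dexamethasone and 214 and 199 in the control libraries. Its log2 ratio of -2.74 was the lowest of the 12 members with start peaks in all 4 lists, and 4.09% of all such genes lay below it. HERPUD1, which gathers the degradation complex, had 32 and 34 with dexamethasone and 97 and 152 in the control libraries. SEL1L, the adaptor of the ubiquitin ligase encoded by SYVN1, had 27 and 24 with dexamethasone and 78 and 68 in the control libraries. The groups of all 3 genes do not overlap. SYVN1 (HRD1) had no start peak in dexamethasone replicate 1 and 22 in replicate 2, against 111 and 99 in the control libraries. At its lower-coordinate end SYVN1 had 31 and 32 with dexamethasone and 32 and 38 in the control libraries, so the groups met there and not at the start.

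The summed end heights of the integrated stress response differed widely between the dexamethasone libraries. The highest end peaks of its 6 genes summed to 57.0 ± 39.6 in the dexamethasone libraries and 401.5 ± 37.5 in the control libraries (SD, n = 2 each), a ratio of 0.142, with 29 and 85 behind the dexamethasone mean. Its ratio was 0.212 without dexamethasone replicate 1 and 0.0722 without replicate 2, so no rank among the groups is read from it. The ratio lay between 0.217 and 0.279 in the cytosolic, mitochondrial, ER, sensor and degradation groups, and was 0.444 for the 2 heat shock factors, with 0.686 without dexamethasone replicate 1 and 0.203 without replicate 2. Over all 35 genes the sums were 676.5 ± 70.0 in the dexamethasone libraries and 2918 ± 163 in the control libraries (SD, n = 2 each), a ratio of 0.232. These sums moved with the number of genes that had a listed peak, and for the integrated stress response that was 1 and 4 genes with dexamethasone and 5 and 5 in the control libraries. They hold end heights only, so the start peaks of ASNS, CANX and DNAJB1, which lie away from both ends, are not in them. HSPD1 and HSPE1 enter them with the same peak. The ratio of such sums over all genes was not computed.

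Of the 6 integrated stress response genes, DDIT3, TRIB3 and PPP1R15A had no start peak in either dexamethasone list, EIF2AK4 and ATF4 had one in replicate 2, and ASNS had one in both. EIF2AK4 (GCN2) had no start peak in dexamethasone replicate 1 and 26 in replicate 2, against 86 and 98 in the control libraries. ATF4, the transcription factor of the response, had none and 21 with dexamethasone and 62 and 83 in the control libraries. DDIT3 (CHOP), a factor linked to cell death under ER stress, had none with dexamethasone and 74 and 95 in the control libraries. For all 3 the control heights were above the dexamethasone heights, with DDIT3 unlisted in both treated libraries. TRIB3, a pseudokinase induced by ATF4 and CHOP, had none with dexamethasone and 110 and 113 in the control libraries, the highest control start heights of the 8 members without a dexamethasone peak. At its other end TRIB3 kept peaks, of 29 and 24 with dexamethasone and 54 and 51 in the control libraries. PPP1R15A (GADD34), which restores translation by directing the dephosphorylation of eIF2, had none with dexamethasone and 43 and 39 in the control libraries. DDIT3 shares its windows with MARS1 and MBD6, so its peak cannot be given to it alone, while TRIB3 and PPP1R15A share none.

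ASNS, the asparagine synthetase gene activated by ATF4, was the single member of this group with a start peak in all 4 lists. It had 22 and 25 with dexamethasone and 38 and 109 in the control libraries, and the control libraries differed more from each other than control replicate 1 did from the dexamethasone libraries. Its promoter is shown because it held the amino acid response element TGATGNAA, which ATF4 binds in this gene and which 2 member windows (ASNS and HERPUD1) and 2.53% of all windows held. The 60 bases at chr7:97872439-97872498 of GRCh38.p14, read on the minus strand, have it in capitals.
ASNS: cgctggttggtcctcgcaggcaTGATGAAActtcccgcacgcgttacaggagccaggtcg
A heat shock element match, GAANNTTC at -64 to -57, overlaps the end of this element, which lies at -68 to -61.

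Median heights of the listed peaks differed between the groups at the gene starts and lay close together at the peaks away from them. The highest start peaks of the members had median heights of 24 and 26.5 in the dexamethasone lists (18 and 16 genes) and 76 and 98.5 in the control lists (30 and 30 genes). Their peaks away from the start, inside the gene or at its other end, had median heights of 27 and 27 in the dexamethasone lists (59 and 54 peaks) and 24 and 25 in the control lists (104 and 102 peaks). The number of peaks away from the start was thus lower with dexamethasone. It was also lower over all genes, at 45261 and 38995 with dexamethasone and 71395 and 63586 in the control lists. Since the lists hold different peaks, the medians do not compare the same places. At some single places away from the start heights were lower with dexamethasone, and at others they were higher. The lower-coordinate end of HSPA9 had 27 and 31 with dexamethasone and 62 and 55 in the control libraries. A peak inside TRIB3 had 32 and 30 with dexamethasone and 90 and 83 in the control libraries. The lower-coordinate end of HSPA5 had no peak with dexamethasone and 44 and 43 in the control libraries. The groups of these 3 genes do not overlap there, as for the upper end of DNAJB1. In the other direction, a peak inside HSPA4 had 46 and 33 with dexamethasone and 30 and 31 in the control libraries. A peak inside ERN1 had 31 and 27 with dexamethasone and 17 and 15 in the control libraries. All these places are examples, and how many were lower or higher was not counted. All gene starts had medians of 24 and 24 with dexamethasone and 50 and 56 in the control libraries, and peaks away from the start of all genes 25 and 26 with dexamethasone against 24 and 26 in the control libraries. The median height of listed start peaks was thus close to that of all genes with dexamethasone and above it in the control libraries, where 94.4% and 96.5% of the peaks in each list were lower than the members' median start peak. In the dexamethasone lists 53.7% and 60.6% were. HSPD1 and HSPE1 enter these start medians with the same peak.

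**Figure D2:**
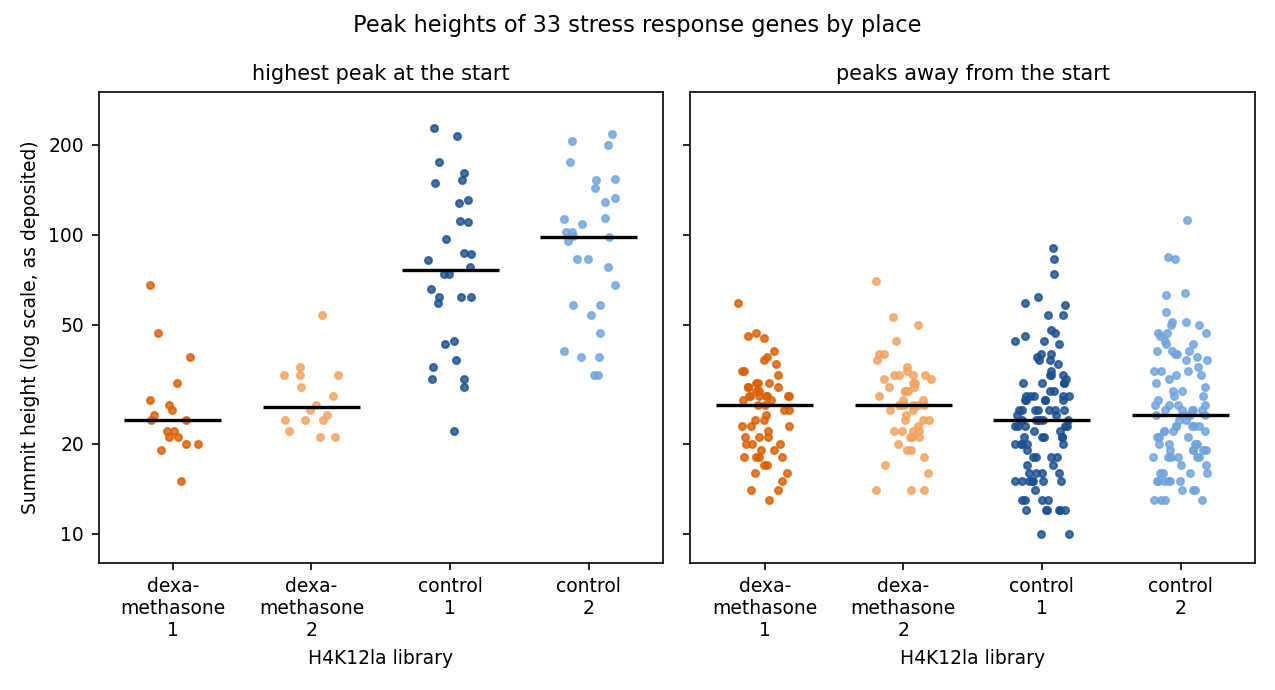
Summit heights (log scale, as deposited) of the peaks of the 33 genes with a known start in each H4K12la library, with the highest start peak of each gene on the left and every peak away from the start on the right; black bars are medians. Start medians are 24 and 26.5 with dexamethasone and 76 and 98.5 in control, while the medians away from the start lie between 24 and 27 in all 4 libraries.

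The start peaks with dexamethasone lay on control peaks. All 18 and all 16 start peaks of the members in the dexamethasone lists overlapped a control peak. The share over all gene starts was not computed, so this overlap is not read as a trait of the members. Their median lengths were 717 and 1010 bp with dexamethasone and 1092 and 1566 bp in the control libraries. The treated libraries thus had the shorter start peaks, with replicate 2 close to the lower control value. The median distance between summit and start was 256 and 370.5 bp with dexamethasone and 370.5 and 299 bp in the control libraries, so the groups overlap in position.

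**Figure D3:**
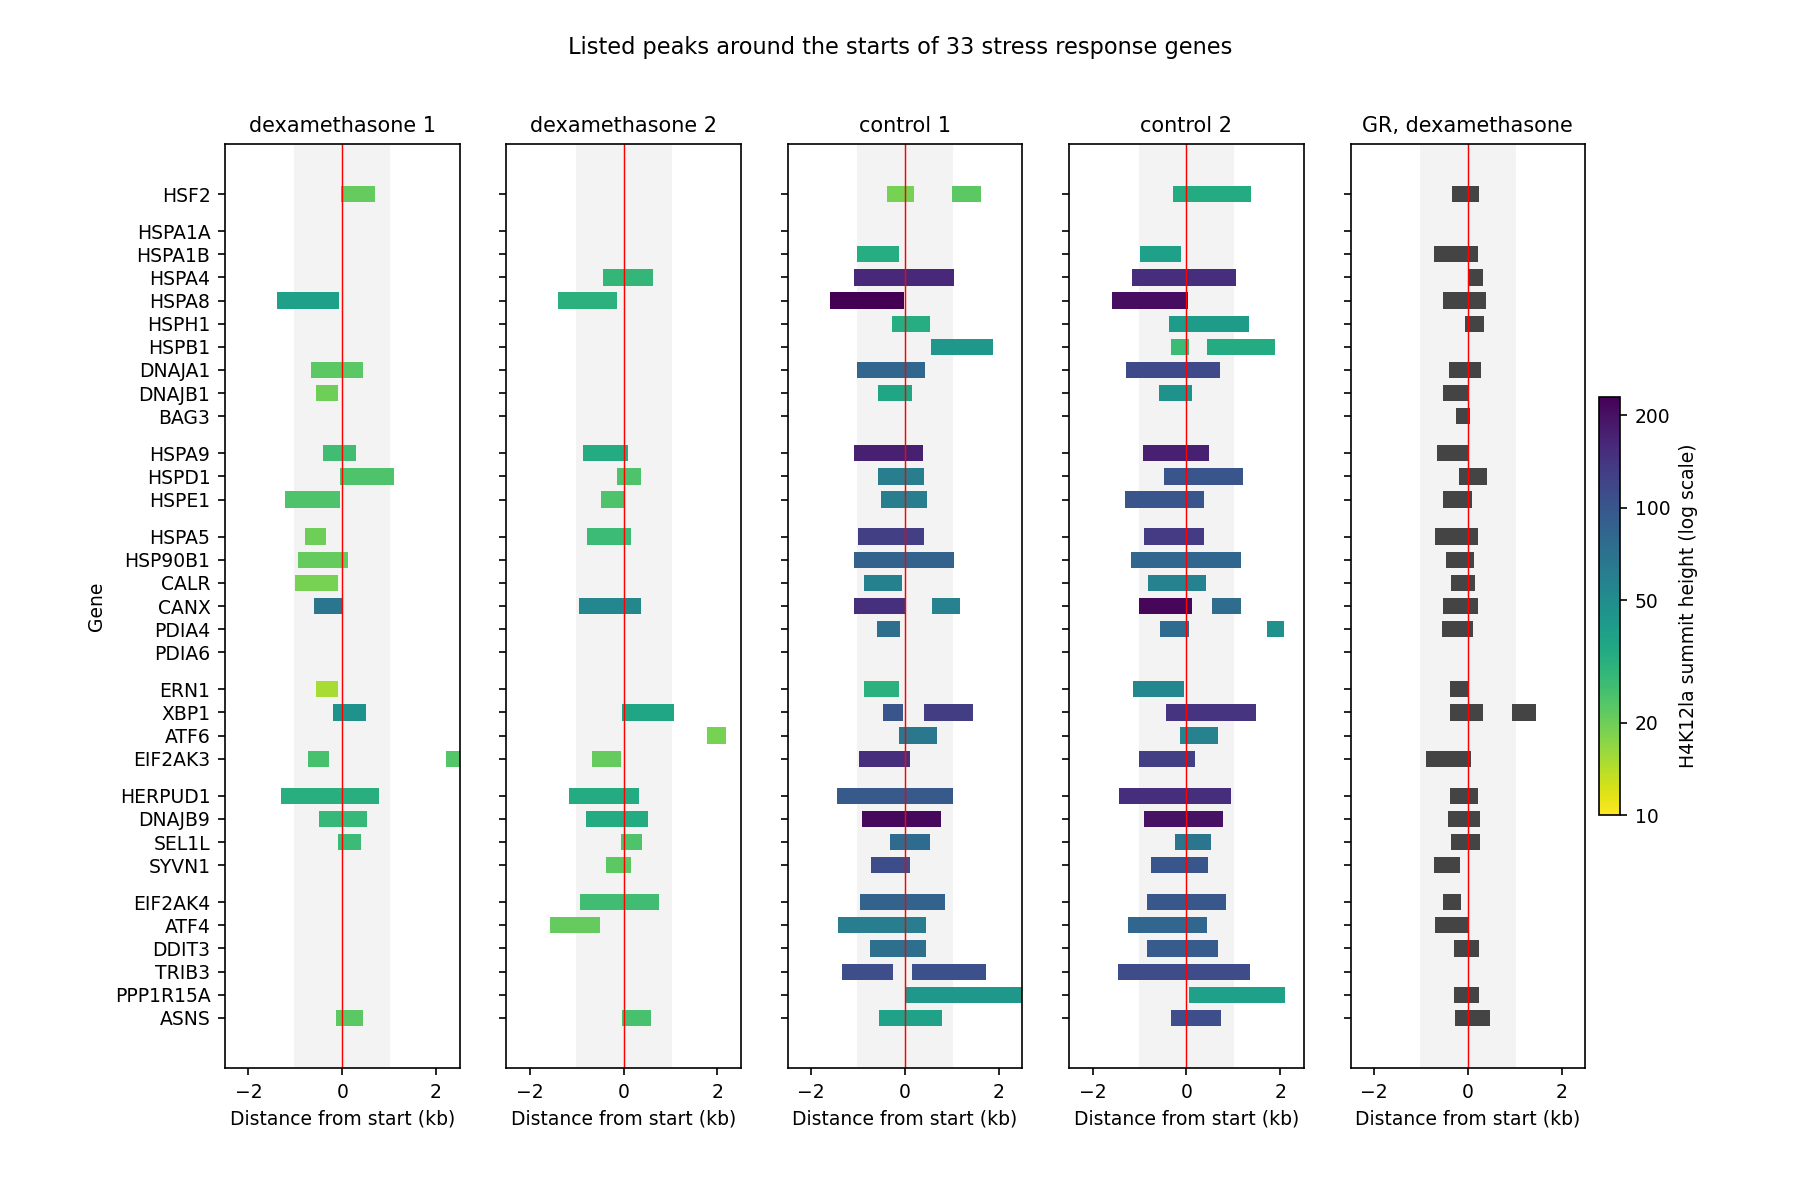
Extent of each listed peak within 2.5 kb of the start of the 33 genes (distance in kb, positive in the direction of transcription), one panel per library, coloured by H4K12la summit height on a log scale; GR peaks carry no height and are dark grey, and the pale band is the 1 kb window on either side. Dexamethasone peaks are fewer (18 and 16 genes, against 30 and 30) and lie on control peaks, and GR peaks overlap the start region of 28 genes.

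Members with a peak in both treated libraries had the higher control peaks at the median. The 12 members with start peaks in all 4 lists had median control heights of 129.5 and 138, the 10 listed in both control and 1 dexamethasone list 72 and 83, and the 8 without a dexamethasone peak 55 and 49.5. The same order held over all genes, at 75 and 87 for 2690 genes, 54.5 and 62 for 2262 and 42 and 49 for 3742. The lists hold no peak under their lowest listed height, and the classes were made from the same control peaks. This order is therefore a description, and its cause was not tested.

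For the 12 members with start peaks in all 4 lists, the median log2 ratio of mean dexamethasone to mean control height was -1.84, beside -1.70 over all 2690 such genes. The lower and upper quartiles of all genes were -2.16 and -1.09, and the members lay between -2.74 and -1.52. DNAJB9, HSPA8, EIF2AK3, HSPA9 and HSPA5 were the 5 with the lowest ratios, each with 4.09% to 10.7% of all genes below it. HERPUD1, HSPD1, HSPE1, XBP1, ASNS, CANX and SEL1L had 38.3% to 58.8% of genes below them and so sat at the middle of the distribution. At gene ends the median was -1.84 for the 18 members and -1.34 for the 4737 genes with end peaks in all 4 lists. The end values include far ends, for which no separate ratio was computed. Why the medians of all genes differ between starts and ends was not tested.

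**Figure D4:**
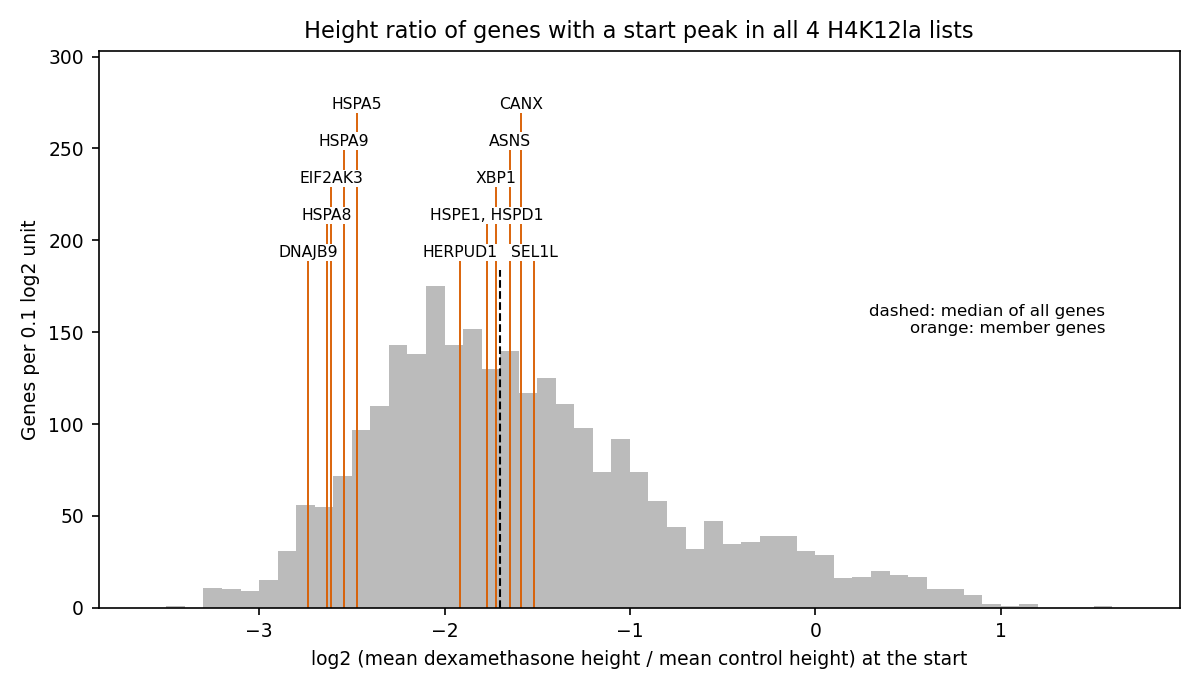
Distribution over 2690 genes with start peaks in all 4 H4K12la lists of the log2 ratio of mean dexamethasone to mean control height (genes per bin of width 0.1), with the 12 member genes as orange lines and the median of all genes, -1.70, as a dashed line. The members fall into 5 at -2.47 or lower and 7 between -1.92 and -1.52.

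GR peaks were listed at the start of 28 of the 33 members, beside 33.8% of all genes with a known start. Among the members with an H4K12la start peak in both control lists, 27 of 30 had one, beside 56% of such genes. At gene ends the count was 27 of 35, beside 32.3% of all genes, and 30 of 35 had a GR peak anywhere in the gene or its windows, beside 38.9%. The GR result rests on 1 library with no replicate and no untreated GR sample, so no change of GR with dexamethasone can be read from it. The list holds 8065 rows with row numbers that reach 15183, so absence from this list does not show absence of GR.

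The 32 distinct GR peaks of the members were 294 to 966 bp long with a median of 606 bp, against 435 bp for the whole list. The 4 longest were those at the starts of EIF2AK3 (chr2:88627390-88628355), HSPA5 (chr9:125241123-125242054), HSPA1B (chr6:31827024-31827948) and HSPA8 (chr11:123061760-123062671). The shortest lay at the start of BAG3 (chr10:119651133-119651426) and inside PDIA6 (chr2:10812458-10812751), where no H4K12la list had an overlapping peak. Of the 28 GR peaks at starts, 17 and 16 were overlapped by an H4K12la peak in the dexamethasone lists and 27 and 27 in the control lists, BAG3 being the one without. The same shares over the whole GR list were not computed, so these counts only describe the members. XBP1 had 2 GR peaks at its start, and CANX and DNAJB1 each had a further one elsewhere in the gene windows. HSF1, HSPA1A, HSPB1, ATF6 and TRIB3 had no listed GR peak. The GR core ACANNNTGT, searched on both strands of the same windows, was in none of the 33 member windows and in 3.73% of all windows.

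Members without a dexamethasone start peak were found both with and without a listed GR peak. Of the 27 members with a GR start peak and start peaks in both control lists, 5 (HSPA1B, HSPH1, PDIA4, DDIT3 and PPP1R15A) had none in either dexamethasone list, beside 38.4% of such genes. Of the 3 members with both control peaks and no GR peak at the start, all 3 (HSPB1, ATF6 and TRIB3) had none, beside 48.9%. With 3 genes in one class, the difference between the classes was not tested.

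Other genes of the same pathways, 81 in number, were in the same direction. An end peak was listed for 49 and 46 of them in the dexamethasone lists and for 77 and 77 in the control lists, which is 60.5% and 56.8% with dexamethasone and 95.1% and 95.1% in the control lists. Over all genes the shares were 39.7% and 33.1% with dexamethasone and 63.4% and 63.3% in the control lists. The class with peaks in both control and neither dexamethasone list held 20 of the 81, namely 2 of 28 further chaperones, 9 of 30 further ER genes and 9 of 23 further integrated stress response genes. These 20 of 81 stand beside 18.8% of all genes. However, 75 of the 81 were listed at an end by both controls, more often than genes at large. Set against those 75, the 20 were a smaller share than the 31.9% found over the 11800 genes that both controls listed there. This difference was not tested. The reverse class held 0, beside 0.764% of all genes. Of the 38 with end peaks in all 4 lists, 36 had dexamethasone heights under the control heights, beside 82.2% of the 4737 such genes. At the 70 known starts, 27 were listed in both control lists only and 25 in all 4 lists, beside 23.6% and 17% of all genes. Of the 65 with a start peak in both control lists, those 27 had none with dexamethasone, beside 43% of the 8694 such genes. Each of the 25 was lower in both dexamethasone libraries, beside 89.8% of the 2690 such genes. A GR end peak was listed for 55 of the 81, beside 32.3% of all genes.

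Among the further ER genes with end peaks in the control lists only, MBTPS2, the site-2 protease that releases active ATF6, had no end peak with dexamethasone and 81 and 104 in the control libraries. CREB3, a membrane-bound factor of the same kind as ATF6, had none with dexamethasone and 86 and 84 in the control libraries. TXNDC5, a disulfide isomerase, had none with dexamethasone and 54 and 61 in the control libraries. These genes were named because they were in this class. That ATF6 was in the class as well is therefore not read as a result about the pathway. In the integrated stress response, STC2, a secreted glycoprotein induced by ER stress, had none with dexamethasone and 78 and 74 in the control libraries. ATF5, a factor related to ATF4, had none with dexamethasone and 64 and 66 in the control libraries. PPP1R15B, the constitutive counterpart of PPP1R15A, had none with dexamethasone and 51 and 70 in the control libraries. It too was named because it was in this class, so nothing is read from its pairing with PPP1R15A. The 2 chaperone genes of the class were HSPA6, an inducible HSP70, with 26 and 35 in the control libraries, and FKBP4, a co-chaperone of steroid receptors, with 19 and 22 there. Neither had a dexamethasone end peak, and both were low in the control libraries beside the other genes named. CREB3 shares its end windows with GBA2 and TLN1, TXNDC5 with BMP6, ATF5 with IL4I1 and NUP62, and HSPA6 with FCGR2A, so these peaks cannot be given to the named genes alone.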

How the data were processed

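The submitters' processing notes name fastp 0.19.6, Bowtie2, deepTools and the build GRCh38 (hg38). The peak caller is not given in the sources used here. Each library has its own list deposited by the authors, with position, length and, for H4K12la, a whole-number signal at the summit (the height). The heights are the authors' own and are set side by side as deposited. The members and gene lists were chosen with earlier results of these data known.

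From these lists, peaks on the autosomes, X and Y entered all counts, which left out 2.02%, 2.03%, 2.51% and 2.41% in dexamethasone replicates 1 and 2 and control replicates 1 and 2, and none of the GR peaks. A gene held a peak when it overlapped the 1 kb window by 1 bp, and its height was that of the highest such peak. Spans and promoter sequences came from RefSeq tables of GRCh38.p14. Start sites matched 15843 genes. Of the members, 14 share an end window with another gene, against 36.3% of all genes. Counts are set beside those of all genes. Values are given for every member, and further pathway genes were named where they were the 3 control-only genes of their group with the highest mean control height. Copies were aligned globally with Biopython 1.88. The code was checked on simulated peak lists. Python 3.11.15, numpy 2.4.6, pandas 2.3.3 and matplotlib 3.10.9 were used.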

Additional observations from a re-analysis of the deposited data

How the results depend on the processing

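Of 65 values recomputed under other settings, 61 were classed as unchanged. For the difference between groups in members with an end peak, this asked only for the same direction. Other counts had to lie within 1.5 times the reported count. The median log2 ratio had to keep its direction and move by less than 0.173. That limit is the SD of the median ratios of each dexamethasone library to each control library. These settings were windows of 500 and 2500 bp, start sites only, the summit (or GR midpoint) inside the window, the whole gene span, a height of at least 20, equal peak numbers of 67582 in each list, heights divided by the median of their list, the replicate block and each library left out. The members with end peaks in both control and neither dexamethasone list numbered 6 to 10 with one library left out, the 10 without dexamethasone replicate 2. Those of the reverse class numbered 0 to 1, the 1 without dexamethasone replicate 1. The median log2 height ratio was -2.09 to -1.74, the lowest without control replicate 1. Among the 21 members that share no window with another gene, a setting chosen after seeing the data, 16 had a GR end peak, a lower count because fewer genes were counted. With replicate numbers as pairs (a block), the number of members with an end peak differed by -9 and the count of members lower in both dexamethasone lists was 18, the same as without pairing; the numbers have no stated link between groups. Depth is unknown and heights are not scaled to it, which limits every comparison of heights and of listed against unlisted peaks.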
